A study of Homo sapiens with 4 samples.

Results

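Respiratory complexes II to V carry electrons from succinate and ubiquinol to oxygen and use the resulting proton gradient to make ATP. Their nuclear-encoded genes were followed here by RNA-seq in THP-1 cells, an established human monocytic leukaemia line, after knockdown of PIWIL4. Members were chosen by gene name: SDHA to SDHD, CYC1, and names beginning with SDHAF, UQCR, UQCC, COX and a digit, or ATP5. Antisense names and pseudogenes were left out. This gave 64 of the 25680 gene names in the tables, with 6 in complex II, 13 in complex III, 26 in complex IV and 19 in complex V. The rule itself uses names and no measured value.

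The knockdown group held 2 libraries of THP-1 cells transduced with a lentivirus carrying an shRNA against PIWIL4 (vector PGP-shPIWIL4). The control group held 2 libraries of THP-1 cells given a scrambled shRNA by the same route (PGP-Scrambled). Cells of both groups were sorted by FACS 48 hours after transduction, and no untransduced cells, other shRNA or rescue were compared. The treatment label of the knockdown libraries also holds the word scrambled, so groups were taken from the sample titles, and PIWIL4 was lower in both libraries titled shPIWIL4. The labels name no batch and do not say whether replicates came from separate cultures, so p-values measure the spread between these libraries, which may be technical. The comparison asked what changes in gene expression when PIWIL4, a PIWI-family Argonaute protein, is reduced in acute myeloid leukaemia cells.

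Complex II (succinate dehydrogenase) feeds electrons from the citric acid cycle into ubiquinone. Complex III (the cytochrome bc1 complex) passes them to cytochrome c, complex IV (cytochrome c oxidase) passes them to oxygen, and complex V (ATP synthase) turns the proton flow into ATP. Cytochrome b of complex III, the catalytic core of complex IV and a few subunits of complex V are encoded by mitochondrial DNA and are not analysed here. Many of the nuclear subunits are small proteins, some with isoform genes for muscle, lung or testis. Assembly factors insert haem, copper or iron-sulphur clusters, or chaperone newly made subunits, and are not part of the finished complexes.

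Promoter sequences of 8 members are shown because these genes mark the contrasts described below: subunits that rose (SDHA, SDHD, UQCRC1, COX7C, COX5B and ATP5G1), a subunit paralog that fell (COX7A2L) and a subunit gene that did not rise (ATP5G2). Each runs 5′ to 3′ from 250 bases before to 50 bases after the gene's start, from RefSeq on GRCh38.p14. The positions are chr5:218070-218369, plus strand for SDHA, chr11:112086623-112086922, plus strand for SDHD, chr3:48609597-48609896, minus strand for UQCRC1 and chr5:86617691-86617990, plus strand for COX7C. They are chr2:97645812-97646111, plus strand for COX5B, chr2:42361168-42361467, minus strand for COX7A2L, chr17:48892537-48892836, plus strand for ATP5G1 and chr12:53676034-53676333, minus strand for ATP5G2. For COX7A2L and ATP5G2, which have several entries, the first listed is shown. Capitals mark matches, on either strand, to 5 motifs. These are NRF1 (GCGC, any base, then TGCGC), the ETS and GABP core (CCGGAAG), YY1 (AAGATGGCG), SP1 (GGGCGG) and the oestrogen-related receptor element (TNAAGGTCA).
SDHA: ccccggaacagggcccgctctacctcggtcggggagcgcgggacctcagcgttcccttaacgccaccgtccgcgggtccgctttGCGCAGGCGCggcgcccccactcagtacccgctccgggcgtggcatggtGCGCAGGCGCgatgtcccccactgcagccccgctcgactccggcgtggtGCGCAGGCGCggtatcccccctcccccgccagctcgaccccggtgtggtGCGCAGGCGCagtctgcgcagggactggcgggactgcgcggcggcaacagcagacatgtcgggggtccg
SDHD: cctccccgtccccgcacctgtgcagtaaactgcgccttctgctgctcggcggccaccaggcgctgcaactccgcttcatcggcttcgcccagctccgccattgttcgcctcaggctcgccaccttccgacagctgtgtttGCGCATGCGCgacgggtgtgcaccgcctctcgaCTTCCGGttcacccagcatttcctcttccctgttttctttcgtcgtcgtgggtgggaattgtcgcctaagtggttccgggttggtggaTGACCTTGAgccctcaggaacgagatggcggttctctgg
UQCRC1: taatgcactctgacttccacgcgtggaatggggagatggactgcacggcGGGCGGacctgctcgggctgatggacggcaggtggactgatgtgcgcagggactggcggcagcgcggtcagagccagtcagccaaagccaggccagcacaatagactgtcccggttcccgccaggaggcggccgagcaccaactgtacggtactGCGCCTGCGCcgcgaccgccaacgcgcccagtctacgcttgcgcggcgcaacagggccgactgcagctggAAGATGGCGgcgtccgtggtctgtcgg
COX7C: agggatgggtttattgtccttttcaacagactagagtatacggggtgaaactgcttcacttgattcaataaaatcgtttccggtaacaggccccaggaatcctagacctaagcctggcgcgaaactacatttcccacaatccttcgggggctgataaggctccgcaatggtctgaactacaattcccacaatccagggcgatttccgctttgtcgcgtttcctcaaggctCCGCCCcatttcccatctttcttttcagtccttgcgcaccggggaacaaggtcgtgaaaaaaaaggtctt
COX5B: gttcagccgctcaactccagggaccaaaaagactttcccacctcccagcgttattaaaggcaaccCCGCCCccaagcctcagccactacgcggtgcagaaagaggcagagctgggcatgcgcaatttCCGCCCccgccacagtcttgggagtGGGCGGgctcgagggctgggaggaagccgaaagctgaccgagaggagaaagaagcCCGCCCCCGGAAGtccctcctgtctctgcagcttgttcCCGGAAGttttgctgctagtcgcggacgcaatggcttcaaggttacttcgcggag
COX7A2L: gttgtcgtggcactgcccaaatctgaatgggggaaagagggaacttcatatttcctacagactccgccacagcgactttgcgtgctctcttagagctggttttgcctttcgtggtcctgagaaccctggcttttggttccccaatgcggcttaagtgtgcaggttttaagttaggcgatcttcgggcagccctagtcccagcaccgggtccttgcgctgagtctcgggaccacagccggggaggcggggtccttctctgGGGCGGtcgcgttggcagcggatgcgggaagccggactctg
ATP5G1: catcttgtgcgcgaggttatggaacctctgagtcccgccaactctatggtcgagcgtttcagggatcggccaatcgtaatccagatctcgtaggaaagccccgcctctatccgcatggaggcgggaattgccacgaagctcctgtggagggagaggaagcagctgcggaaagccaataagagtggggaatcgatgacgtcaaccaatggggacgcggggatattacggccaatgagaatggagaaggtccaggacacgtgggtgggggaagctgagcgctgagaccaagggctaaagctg
ATP5G2: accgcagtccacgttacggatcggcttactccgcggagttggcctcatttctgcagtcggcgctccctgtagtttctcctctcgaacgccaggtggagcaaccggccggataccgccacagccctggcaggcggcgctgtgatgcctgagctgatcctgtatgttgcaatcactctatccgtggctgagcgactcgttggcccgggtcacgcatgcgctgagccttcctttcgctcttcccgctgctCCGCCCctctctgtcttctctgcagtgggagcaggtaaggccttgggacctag

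A promoter entry was found for 48 of the 64 members, by symbol or by a symbol's synonym. The NRF1 motif was in 29.2% of these 48 promoters and in 6.28% of the 27305 promoters of the same length, taking the first entry per gene. The ETS core was in 37.5% against 10.7%, the YY1 motif in 10.4% against 1.85%, and the SP1 motif in 54.2% against 44.6%. The receptor element was in 2.08% of the members' promoters, which is SDHD alone, and in 0.963% of all promoters. Among the shown sequences, SDHA held 4 matches to the NRF1 motif and SDHD held matches to the NRF1, ETS and receptor motifs. Subunit and assembly factor promoters held the NRF1 motif in 9 of 30 and 4 of 12 cases, and the ETS core in 14 of 30 and 4 of 12. The 27305 promoters were not limited to genes expressed in these cells, and no set matched for expression was compared. A match is only a run of letters and was not tested as a binding site. COX7C, ATP5G2 and COX7A2L held a match to the SP1 motif alone, and ATP5G1 held no match to any of these letters in this window.

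Total counts per library ranged from 31458079 to 53657246. PIWIL4 had 17.8 and 17.4 CPM (counts relative to library size, scaled by TMM, a method that centres the libraries on the bulk of genes) in shPIWIL4 libraries 1 and 2, against 38.5 and 37.2 CPM in Scrambled libraries 1 and 2. Monocytic genes were present, with CD33 between 68.2 and 75.6 CPM and SPI1 between 81.9 and 117 CPM over the 4 libraries, though CD14 reached only 2.45 CPM. Monocytic markers moved both ways: LYZ (lysozyme) had 1803 and 1817 CPM in shPIWIL4, against 144 and 151 CPM in Scrambled, and FCGR1A also rose (log2 fold change 0.28), while CSF1R and MPO fell (-0.49 and -0.89). CD33, SPI1, ITGAM and CD14 were not called, and the part of these changes in the results below was not tested. Of 13 markers of T, B, erythroid, fibroblast and epithelial cells, CD3E, CD2 and COL1A2 were at 0 in every library. The other markers summed with them to 1.26 and 1.69 CPM in the shPIWIL4 libraries and 6.89 and 7.14 CPM in the Scrambled libraries. The 4 that could be tested (CD79A, COL1A1, KRT8 and KRT18) were all lower in shPIWIL4. COL1A1, with 9 and 15 counts in shPIWIL4, passed the filter on low counts only through the Scrambled libraries. The part of these 4 genes in the results below was not tested. A change was called where edgeR's quasi-likelihood test gave an adjusted p under 0.05 (Benjamini-Hochberg, over all 16108 genes tested). By that rule 57.7% of all genes tested were called, 28.7% higher and 29.1% lower in shPIWIL4. Every direction is therefore relative to the centre of all genes, and in such bulk samples fewer cells of a type and less RNA per cell cannot be told apart.

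In shPIWIL4, subunit genes of all 4 complexes were mostly higher. Assembly factors within the name rule were called in both directions, and the share higher was close to that of all genes tested. Assembly and partner genes with other names, described below, rose more often than they fell. Of 38 genes for subunits of the finished complexes, 34 rose and 0 fell, with a median log2 fold change of 0.66. All 38 passed the filter on low counts, and the median over all genes tested was -0.003. Of 14 assembly factors, 4 rose, 3 fell and 7 did not pass the test, with a median of 0.06. That is 28.6% higher, against 28.7% of all genes tested, of which 29.1% were lower. The isoforms, copies and other names make up 12 members, of which 7 could be tested, 2 rising and 3 falling. Together 40 of the 59 members tested rose and 6 fell, and the 6 include COX7A1, which passed the low-count filter only through the Scrambled libraries. Both shPIWIL4 libraries lay above both Scrambled libraries for 34 of the 38 subunit genes, an order found for 39.1% of all genes tested. The rises were moderate: 23 of the 40 reached 1.5-fold and 2 reached 2-fold.

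**Figure D1:**
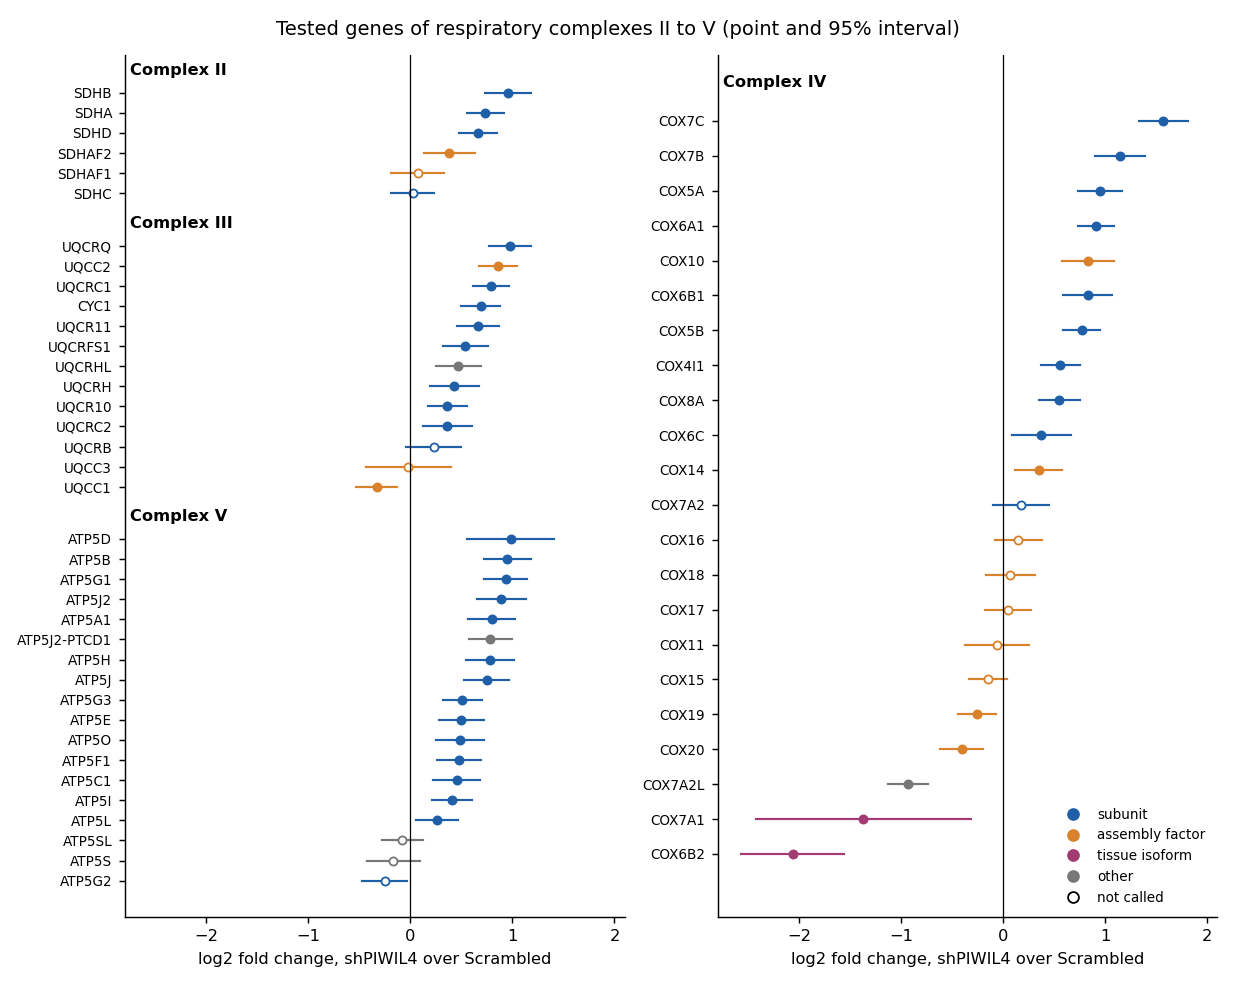
Log2 fold change of shPIWIL4 over Scrambled (horizontal axis) for the 59 tested members, by complex, with 95% intervals from edgeR (n = 2 libraries each). Colours give the kind of gene and open points were not called. Subunits sit right of 0 except ATP5G2 at -0.25, and assembly factors spread around 0 from -0.41 to 0.86.

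Summed over subunit genes, the level rose in each complex. The 38 subunit genes totalled 8834 and 9935 CPM in shPIWIL4 libraries 1 and 2, against 6451 and 5920 CPM in Scrambled libraries 1 and 2. The ratio of the group means was 1.52 over all subunits, and by complex it was 1.42 for complex II, 1.41 for complex III, 1.63 for complex IV and 1.53 for complex V. The 14 assembly factors totalled 519.9 and 520.5 CPM in the shPIWIL4 libraries, against 518.7 and 541.6 CPM in the Scrambled libraries, a ratio of 0.981. By complex the assembly factor ratio was 1.24 for complex II, 1.18 for complex III and 0.91 for complex IV, and the groups did not overlap in any of these. Per length, in TPM (transcript levels corrected for gene length and library size), the assembly factors totalled 620.7 and 593.9 in shPIWIL4 and 532.4 and 573.2 in Scrambled, a ratio of 1.1. The TPM ratio was 1.28 for complex II, 1.36 for complex III and 1 for complex IV. In complex IV the TPM groups overlapped, with 407 and 378.3 in shPIWIL4 and 372.6 and 412.1 in Scrambled. For the subunit totals both shPIWIL4 libraries lay above both Scrambled libraries in each of the 4 complexes, and for the assembly factor total in CPM the groups overlapped. All 64 members took up 0.969% and 1.05% of the counts in the shPIWIL4 libraries and 0.735% and 0.690% in the Scrambled libraries.

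**Figure D2:**
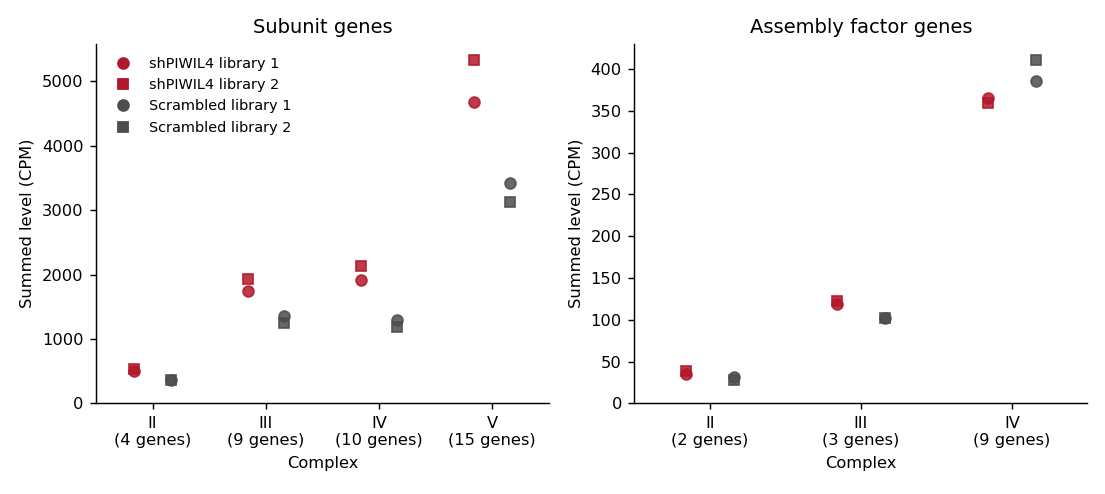
Summed TMM-scaled CPM (vertical axis, from 0) of the subunit genes of each complex (left panel) and of its assembly factors (right panel), 1 point per library. In complex V the subunit totals were 4679 and 5332 CPM in shPIWIL4 and 3427 and 3134 CPM in Scrambled, while the complex IV assembly factors totalled 365.5 and 359.1 CPM in shPIWIL4 and 385.6 and 410.8 CPM in Scrambled.

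Libraries of the same group also differed. Of the 38 subunit genes, 29 were higher in shPIWIL4 library 2 than in shPIWIL4 library 1, and 35 were higher in Scrambled library 1 than in Scrambled library 2. Scrambled library 2 was the control with the lower summed subunit level. Over all genes, fewer calls were made when a Scrambled library was left out and more when an shPIWIL4 library was left out. Subunit calls in those fits are therefore not counted here, and a call lost or gained in them, as given below, is to be read with that.

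In complex II, 3 of the 4 subunit genes rose and SDHC did not. SDHA, the flavoprotein that oxidises succinate, had 182 and 174 CPM in shPIWIL4 libraries 1 and 2, against 104 and 110 CPM in Scrambled libraries 1 and 2. SDHB, the iron-sulphur subunit, had 82.99 and 98.04 CPM in shPIWIL4 and 48.7 and 44.8 CPM in Scrambled. For both genes the shPIWIL4 values lay well clear of the Scrambled values. The log2 fold change was 0.73 for SDHA (SE 0.08, adjusted p 6.9e-05) and 0.96 for SDHB (SE 0.10, adjusted p 5.2e-05).

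SDHC and SDHD encode the membrane anchors of complex II and went separate ways. SDHD had 101 and 103 CPM in shPIWIL4, against 62.0 and 66.7 CPM in Scrambled, a log2 fold change of 0.67 (SE 0.08, adjusted p 1.2e-04). SDHC had 140 and 159 CPM in shPIWIL4, against 154 and 142 CPM in Scrambled, with overlapping groups. Its log2 fold change was 0.02, with a 95% interval from -0.19 to 0.23. Of the assembly factors, SDHAF2, which helps attach FAD to SDHA, had 28.4 and 32.2 CPM in shPIWIL4 and 25.1 and 21.6 CPM in Scrambled (adjusted p 0.016). Its call was lost without Scrambled library 2 (adjusted p 0.18), with upper-quartile scaling (0.076) and under a stricter filter (0.060). SDHAF1, which helps SDHB receive its iron-sulphur clusters, had 6.95 and 6.87 CPM in shPIWIL4, against 6.45 and 6.69 CPM in Scrambled, and did not pass the test (adjusted p 0.63). SDHA reads may be shared with its pseudogenes, of which SDHAP1, SDHAP2 and SDHAP3 are listed at 8.52 to 14.1 CPM.

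In complex III, 8 of 9 subunit genes rose. The largest rise was in UQCRQ, a small subunit, with 103 and 114 CPM in shPIWIL4, against 57.9 and 52.5 CPM in Scrambled. UQCRC1, a core protein, had 273 and 265 CPM in shPIWIL4 and 157 and 155 CPM in Scrambled. The log2 fold changes were 0.98 for UQCRQ (SE 0.09, adjusted p 2.6e-05) and 0.79 for UQCRC1 (SE 0.08, adjusted p 4.0e-05). The catalytic subunits CYC1 (cytochrome c1) and UQCRFS1 (the Rieske iron-sulphur protein) rose by 0.69 and 0.54 on the log2 scale, and UQCR11, UQCRH, UQCR10 and UQCRC2 rose by 0.66, 0.43, 0.36 and 0.36. The calls of UQCRH, UQCR10 and UQCRC2 were lost without Scrambled library 2 (adjusted p 0.071, 0.059 and 0.12), and without shPIWIL4 library 2 the UQCRC2 value was 0.22, still called. The UQCRC2 call was also lost with upper-quartile scaling (0.086) and under a stricter filter (0.062).

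UQCRB, the ubiquinone-binding subunit, did not pass the test. It had 190 and 243 CPM in shPIWIL4, against 197 and 173 CPM in Scrambled, and its groups overlapped because shPIWIL4 library 1 lay below Scrambled library 1. Its log2 fold change was 0.23, with a 95% interval from -0.04 to 0.50. It was called higher without shPIWIL4 library 1 (log2 fold change 0.41) and without Scrambled library 1 (0.35). UQCRHL, an intronless copy of UQCRH, also rose, but its counts are uncertain because the copies can share reads.

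The complex III assembly factors, which act on cytochrome b and the early complex, moved apart. UQCC2 had 66.3 and 68.4 CPM in shPIWIL4, against 36.6 and 37.7 CPM in Scrambled. UQCC1, its partner in cytochrome b assembly, had 41.9 and 46.8 CPM in shPIWIL4, against 56.6 and 55.1 CPM in Scrambled. UQCC2 thus rose, by 0.86 (SE 0.08, adjusted p 3.0e-05), and UQCC1 fell, by 0.33 (SE 0.09, adjusted p 0.011), a call lost without Scrambled library 1 (adjusted p 0.11). UQCC3 had 10.9 and 7.12 CPM in shPIWIL4, against 8.34 and 9.85 CPM in Scrambled, and did not pass the test (adjusted p 0.93). It was called lower without shPIWIL4 library 1 (log2 fold change -0.36).

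Complex IV held both the largest rise and the largest falls. Of its 10 ubiquitous or widely expressed subunits, 9 rose. COX7C, a small subunit of cytochrome c oxidase, had 217 and 261 CPM in shPIWIL4, against 85.1 and 76.0 CPM in Scrambled. COX7B had 138 and 167 CPM in shPIWIL4, against 73.2 and 65.1 CPM in Scrambled, and COX5A had 168 and 192 CPM in shPIWIL4, against 97.4 and 90.1 CPM in Scrambled. The lowest shPIWIL4 value exceeded the highest Scrambled value in each of these genes. COX7C was 2.97-fold higher (log2 fold change 1.57, SE 0.11, adjusted p 4.7e-06) and COX7B was 2.21-fold higher (1.14, SE 0.11, adjusted p 2.8e-05). COX5A rose by 0.94 (SE 0.09, adjusted p 3.5e-05).

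Of the subunits with a tissue-restricted partner, COX6A1, COX6B1, COX4I1 and COX8A rose and COX7A2 was not called. COX6A1 had 136.5 and 133.9 CPM in shPIWIL4 and 73.62 and 70.49 CPM in Scrambled, and COX6B1 had 235.6 and 280 CPM in shPIWIL4 and 153.3 and 137 CPM in Scrambled. COX4I1 had 423.8 and 431 CPM in shPIWIL4 and 296.3 and 284.3 CPM in Scrambled, and COX8A had 109.3 and 97.77 CPM in shPIWIL4 and 72.45 and 69.16 CPM in Scrambled. The groups did not overlap in these genes, and the log2 fold changes were 0.91, 0.83, 0.56 and 0.55. The zinc-binding subunit COX5B rose by 0.77. COX6C rose by 0.38 (adjusted p 0.028), a call lost without Scrambled library 2 (adjusted p 0.11), without shPIWIL4 library 2 (0.061), with library totals (0.063), with upper-quartile scaling (0.12) and under a stricter filter (0.11). Its value was 0.56 without shPIWIL4 library 1 and 0.18 without shPIWIL4 library 2. COX7A2, the widely expressed form of subunit 7A, had 245 and 306 CPM in shPIWIL4, against 264 and 224 CPM in Scrambled. Its groups overlapped, and its log2 fold change was 0.17, with a 95% interval from -0.10 to 0.45. Without shPIWIL4 library 1 it was called higher (0.33). Several of these small subunits have processed pseudogenes, and reads that match both were not separated here.

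Paralogs and tissue forms of complex IV subunits were lower or hardly detected. COX7A2L, also called SCAF1, is a subunit 7A paralog that links complexes III and IV into supercomplexes. It had 42.2 and 47.0 CPM in shPIWIL4, against 87.1 and 83.4 CPM in Scrambled. Both shPIWIL4 values lay well below both Scrambled values, and COX7A2L fell by 0.94 on the log2 scale (SE 0.09, adjusted p 2.7e-05). It was called lower under each of the 12 other settings tried.

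COX6B2, the testis form of subunit 6B, had 0.414 and 0.443 CPM in shPIWIL4 (21 and 23 counts), against 1.67 and 1.89 CPM in Scrambled (53 and 100 counts). COX6B2 fell by 2.06 (SE 0.22, adjusted p 6.0e-05), and it made up at most 0.0624% of the summed COX6B1 and COX6B2 TPM in shPIWIL4 and at most 0.488% in Scrambled. COX7A1, the heart and muscle form of subunit 7A, had 5 and 10 counts in shPIWIL4 and 16 and 16 counts in Scrambled, or 0.0987 and 0.192 CPM in shPIWIL4 and 0.504 and 0.303 CPM in Scrambled. Its call (log2 fold change -1.37, SE 0.47, adjusted p 0.030) was lost in DESeq2 (adjusted p 0.18), without Scrambled library 1 (0.18) and without shPIWIL4 library 1 (0.12).

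The other tissue forms were not tested. COX4I2, the lung form of subunit 4, and COX7B2, a testis paralog, had 0 counts in all 4 libraries. With 3 counts as the limit that a count of 0 allows, this leaves up to 0.0592 and 0.0559 CPM in shPIWIL4 libraries 1 and 2 and up to 0.0954 and 0.0581 CPM in Scrambled libraries 1 and 2, for counting error only. COX6A2, the muscle form of subunit 6A, had 1 count, in shPIWIL4 library 1. COX8C, the testis form of subunit 8, had 4 and 1 counts in shPIWIL4 and 1 and 4 counts in Scrambled.

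Of the 9 COX-named assembly factors, 2 rose, 2 fell and 5 did not pass the test, so 22.2% were higher, against 28.7% of all genes tested. COX10, which makes haem A from haem B with COX15, had 21.6 and 25.5 CPM in shPIWIL4, against 13.4 and 13.0 CPM in Scrambled, a log2 fold change of 0.83 (SE 0.11, adjusted p 2.2e-04). COX15 itself had 48.5 and 51.5 CPM in shPIWIL4, against 56.4 and 54.7 CPM in Scrambled, and did not pass the test (adjusted p 0.15). It was called lower with upper-quartile scaling, with library totals and under a stricter filter, at log2 fold changes of -0.27, -0.20 and -0.24. The antisense gene COX10-AS1 was listed at 3.73 and 3.83 CPM in shPIWIL4 and 4.41 and 5.25 CPM in Scrambled, and without a stated strand setting its reads and those of COX10 cannot be told apart.

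COX20, a chaperone of the mitochondrially encoded subunit COX2, had 127 and 117 CPM in shPIWIL4, against 151 and 172 CPM in Scrambled. COX19, a factor tied to copper delivery, had 50.9 and 48.7 CPM in shPIWIL4, against 58.9 and 59.9 CPM in Scrambled. Neither gene's groups overlapped, and the log2 fold changes were -0.41 for COX20 (adjusted p 4.7e-03) and -0.26 for COX19 (adjusted p 0.024). Both calls were lost without Scrambled library 2 (adjusted p 0.077 and 0.20), and that of COX19 also without Scrambled library 1 (0.18) and in DESeq2 (0.065). COX14 rose by 0.35 (adjusted p 0.016), a call lost without Scrambled library 2 (0.20), with upper-quartile scaling (0.085) and under a stricter filter (0.054). The copper chaperone COX17 and the factors COX11, COX16 and COX18 did not pass the test, with log2 fold changes from -0.06 to 0.15. Without shPIWIL4 library 1, COX16 was called higher (0.25).

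**Figure D3:**
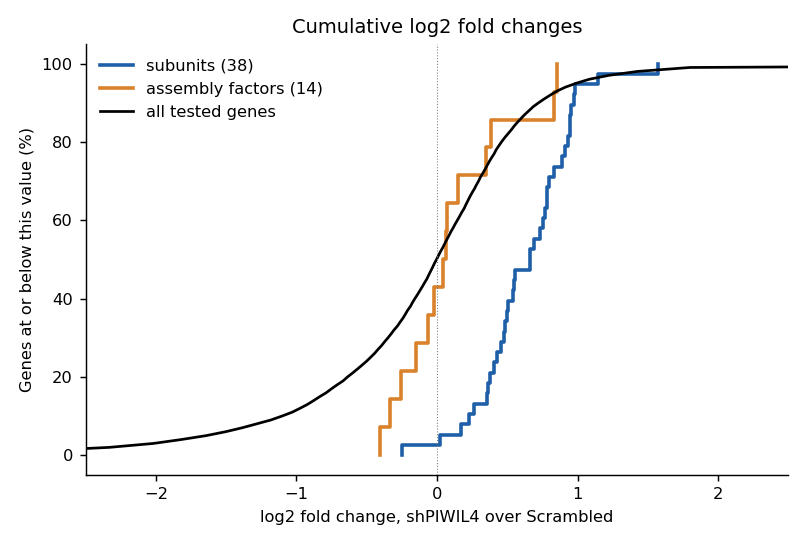
Cumulative share of genes (vertical axis, percent) at or below each log2 fold change of shPIWIL4 over Scrambled (horizontal axis) for the 38 subunit genes, the 14 assembly factors and all 16108 genes tested. The subunit curve lies right of the others around its median of 0.66, and the assembly factors have a median of 0.06.

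In complex V, 14 of 15 subunit genes rose and none was called lower. ATP5B, the catalytic beta subunit, had 1221 and 1410 CPM in shPIWIL4, against 707 and 657 CPM in Scrambled, the highest count level of any member. ATP5A1, the alpha subunit, had 931 and 1083 CPM in shPIWIL4, against 603 and 556 CPM in Scrambled. ATP5D, the delta subunit of the rotor stalk, had 36.7 and 23.2 CPM in shPIWIL4, against 13.8 and 16.4 CPM in Scrambled. Within shPIWIL4, ATP5D was lower in library 2 than in library 1, while ATP5B and ATP5A1 were higher in library 2. The log2 fold changes were 0.95 for ATP5B (SE 0.10, adjusted p 6.2e-05), 0.80 for ATP5A1 (SE 0.10, adjusted p 1.8e-04) and 0.98 for ATP5D (SE 0.19, adjusted p 1.8e-03). Without shPIWIL4 library 1 the ATP5D value was 0.62, and it was still called.

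The gamma and epsilon subunits of the rotor, ATP5C1 and ATP5E, rose by 0.45 and 0.50 on the log2 scale. Among the genes of the peripheral stalk, which holds the catalytic head still, ATP5H (subunit d), ATP5J (factor 6), ATP5O (OSCP) and ATP5F1 (subunit b) rose by 0.78, 0.75, 0.49 and 0.48. Of the small membrane subunits e, f and g, ATP5J2 (f) rose by 0.89 and ATP5I (e) by 0.40. ATP5L (g) had 148 and 166 CPM in shPIWIL4, against 138 and 124 CPM in Scrambled, and rose by 0.26 (SE 0.09, adjusted p 0.036). That call was lost without Scrambled library 2 (adjusted p 0.30), without shPIWIL4 library 2 (0.057), with library totals (0.056), upper-quartile scaling (0.22), a stricter filter (0.13) and a length offset (0.052). ATP5J2-PTCD1, a readthrough of ATP5J2 and its neighbour PTCD1, rose by 0.78, but reads over ATP5J2 exons may be counted for either name. ATP5L2, a copy of subunit g, had 10 and 6 counts in shPIWIL4 and 2 and 5 in Scrambled and was not tested.

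The 3 genes for subunit c, which encode the same mature protein of the rotor ring with different import sequences, did not move together. ATP5G1 had 112 and 126 CPM in shPIWIL4, against 65.5 and 59.3 CPM in Scrambled. ATP5G3 had 328 and 351 CPM in shPIWIL4, against 242 and 236 CPM in Scrambled. ATP5G2 had 376 and 421 CPM in shPIWIL4, against 502 and 446 CPM in Scrambled. ATP5G1 and ATP5G3 rose, by 0.93 (SE 0.09, adjusted p 3.8e-05) and 0.51 (SE 0.08, adjusted p 7.5e-04). Both shPIWIL4 values of ATP5G2 lay below both Scrambled values, but its log2 fold change of -0.25 (SE 0.10) missed the threshold (adjusted p 0.056). It was called lower with upper-quartile scaling (-0.37), library totals (-0.30), a stricter filter (-0.34), a length offset (-0.27) and without shPIWIL4 library 2 (-0.33).

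Per length, in TPM, ATP5G2 made up 52.1% and 52.5% of the subunit c transcripts in shPIWIL4, against 69.5% and 68.5% in Scrambled. The means were 52.3 ± 0.26% in shPIWIL4 and 69.0 ± 0.71% in Scrambled (SD, n = 2 each), a difference of -16.7 percentage points. A two-sided exact permutation test gave p = 0.333, the smallest value that n = 2 against n = 2 allows. ATP5G1 made up at most 31.3% in shPIWIL4 and at most 18.1% in Scrambled. These genes resemble each other over the mature protein's coding stretch, so the split of reads between them is uncertain.

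**Figure D4:**
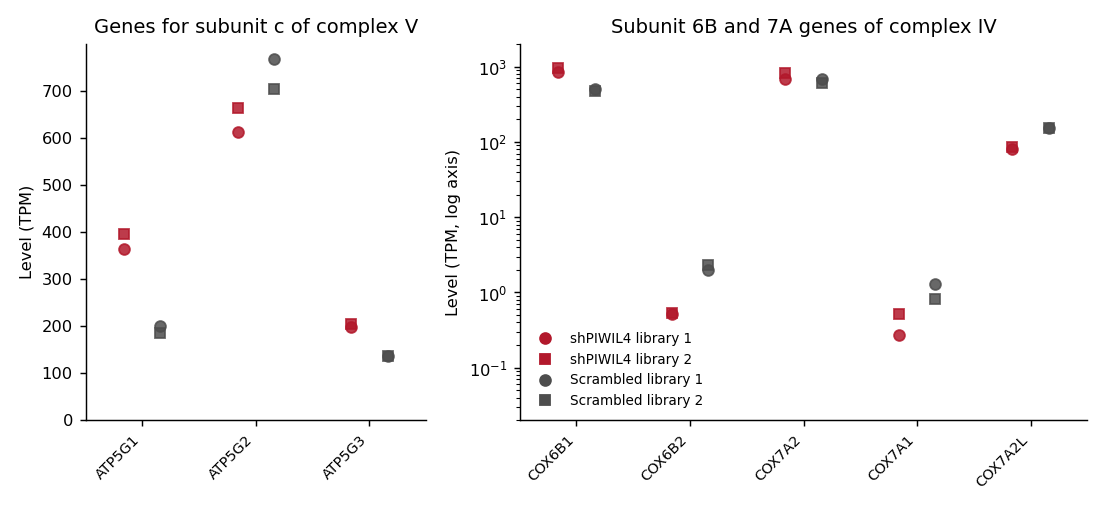
TPM per library (vertical axes; linear from 0 on the left, log on the right) of the subunit c genes of complex V and of the subunit 6B and 7A genes of complex IV. ATP5G1 and ATP5G3 are higher and ATP5G2 lower in both shPIWIL4 libraries. COX7A2L lies at 79.5 and 85.5 TPM in shPIWIL4 and at 154 and 152 TPM in Scrambled.

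ATP5S and ATP5SL share the name but are not subunits. ATP5SL is also known as an assembly factor of complex I. ATP5S had 6.28 and 6.56 CPM in shPIWIL4, against 7.24 and 7.22 CPM in Scrambled, and ATP5SL had 42.7 and 39.7 CPM in shPIWIL4, against 42.7 and 44.5 CPM in Scrambled. Neither passed the test (adjusted p 0.24 and 0.46).

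Levels per length placed the small subunits UQCRH and ATP5E at the top in Scrambled, and ATP5B stood level with them in shPIWIL4. UQCRH had 1473 ± 118 TPM in shPIWIL4 and 1061 ± 70 TPM in Scrambled, and ATP5E had 1461 ± 80.8 TPM in shPIWIL4 and 1004 ± 68.9 TPM in Scrambled (SD, n = 2 each). These neighbours did not differ beyond their spread in either group. ATP5B had 1472 ± 112 TPM in shPIWIL4 and 739.9 ± 23 TPM in Scrambled. COX7C, at rank 11 among members in Scrambled, had 1211 ± 126 TPM in shPIWIL4 and 395.9 ± 23.4 TPM in Scrambled. ATP5G2 ranked above COX6B1 and ATP5A1 in Scrambled but below both in shPIWIL4, where it had 638.6 ± 35.9 TPM against 736.3 ± 45.1 TPM in Scrambled. UQCRH counts are uncertain because UQCRHL can share its reads.

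By the gene lengths recovered from the deposited FPKM values, members were shorter than most genes tested, which matters where length affects counts. These are lengths per gene, not of single transcripts. The median length was 1234 bases over the 59 tested members and 2952 bases over all genes tested. In the class from 500 to under 1000 bases, 16 of 18 members rose with a median log2 fold change of 0.55, while 29.5% of the 932 genes tested in that class were higher with a median of 0. From 1000 to under 2000 bases, 14 of 21 members rose with a median of 0.45, against 29.5% of 3106 genes and a median of 0.02. The excess was smaller in longer genes. From 2000 to under 4000 bases 5 of 10 members rose (median 0.25), against 29.6% of all genes there, and from 4000 bases 1 of 5 rose and 1 fell (median 0.07), against 27.9% higher. Under 500 bases 4 of 5 members rose (median 0.50), against 20.3%. Length and kind of gene went together, with a median length of 1070.5 bases for subunits and 2199 bases for assembly factors. Their separate parts were not tested. With the length trend removed from each library, 39 members were higher and 7 lower, against 29.9% higher and 28% lower of all genes tested. Across the 59 members the log2 fold change had a Pearson r of -0.28 with log2 length and of 0.59 with the mean log2 CPM. By rank, the Spearman rho was -0.33 with length and 0.34 with the mean log2 CPM. These are a description only, since all values come from the same 4 libraries.

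Other genes of the pathway, outside the name rule, were taken from a list of 54 genes, all of which were tested. Of these, 27 rose, 4 fell and 23 did not pass the test, with a median log2 fold change of 0.34. The share higher was 50%, against 28.7% of all genes tested, of which 29.1% were lower. Cytochrome c, the carrier between complexes III and IV, is encoded by CYCS, which had 426 and 354 CPM in shPIWIL4 and 181 and 224 CPM in Scrambled. HCCS, which attaches haem to it, had 23.1 and 26.3 CPM in shPIWIL4 and 12.0 and 13.9 CPM in Scrambled. Both rose, by 0.94 (SE 0.13, adjusted p 2.0e-04) and 0.93 (SE 0.12, adjusted p 1.4e-04).

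Assembly and partner genes without a COX, SDH, UQCC or ATP5 name rose more often than they fell. For complex IV and copper handling, 12 of 20 (60%) rose and 0 fell, against 28.7% higher and 29.1% lower of all genes tested. Among the 12, HIGD1A, a small membrane protein bound to the complex, rose by 1.14, and NDUFA4, now counted as a complex IV subunit, by 0.95. CMC2 and PET100 rose by 0.70 and 0.73. Of 7 ATP synthase factors and partners, 4 (57.1%) rose and 0 fell. USMG5 and C14orf2, which encode small proteins of the complex, rose by 0.86 and 0.59. The assembly factor TMEM70 rose by 0.46 and the inhibitor ATPIF1 by 0.40. BCS1L, which inserts the Rieske protein, rose by 0.34, 1 of 3 (33.3%) for complex III. The complex IV and ATP synthase lists mix assembly factors with subunits and partners. The calls of TMEM70 and BCS1L were lost without Scrambled library 2 (adjusted p 0.073 and 0.10), and that of BCS1L also with upper-quartile scaling (0.064).

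Genes that copy and transcribe mitochondrial DNA were mostly not called, with 3 of 11 higher and 1 lower. The share higher was 27.3%, near the 28.7% of all genes tested. POLG, the catalytic subunit of the mitochondrial DNA polymerase, had 165 and 160 CPM in shPIWIL4, against 130 and 128 CPM in Scrambled. POLG2, its accessory subunit, had 19.9 and 21.2 CPM in shPIWIL4, against 37.6 and 37.0 CPM in Scrambled. POLG rose by 0.34 (adjusted p 5.0e-03) and POLG2 fell by 0.86 (adjusted p 5.7e-05). TFB2M, a mitochondrial transcription factor, rose by 0.49, and the helicase gene C10orf2 (Twinkle) by 0.37. The calls of POLG and C10orf2 were lost without Scrambled library 2 (adjusted p 0.058 and 0.12), and with upper-quartile scaling their values were 0.21 and 0.24. TFAM did not pass the test (0.21, adjusted p 0.075), but was called higher without shPIWIL4 library 2 (0.25) with a length offset (0.24) and without a low-count filter (0.24).

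Of 11 transcription factors and coactivators of nuclear respiratory genes, 5 rose and 3 fell. The share higher was 45.5%, against 28.7% of all genes tested, of which 29.1% were lower. PPARGC1A, which encodes the coactivator PGC-1alpha, had 7.12 and 8.45 CPM in shPIWIL4, against 2.68 and 2.65 CPM in Scrambled. PPARGC1B, its paralog, had 47.6 and 49.7 CPM in shPIWIL4, against 20.6 and 20.5 CPM in Scrambled. ESRRA, which encodes a nuclear receptor that works with these coactivators, had 71.11 and 54.98 CPM in shPIWIL4, against 22.9 and 28.1 CPM in Scrambled. In all 3 genes both shPIWIL4 libraries lay far above both Scrambled libraries. PPARGC1A was 2.92-fold higher (adjusted p 2.6e-05), PPARGC1B 2.37-fold (5.8e-06) and ESRRA 2.47-fold (5.6e-05), and on the log2 scale the SE was 0.15, 0.09 and 0.14.

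PPRC1, a further coactivator of the family, rose by 0.55, and GABPB2, a subunit of the ETS factor GABP, by 0.73. The DNA-binding subunit gene GABPA had 60.7 and 55.6 CPM in shPIWIL4, against 49.3 and 55.9 CPM in Scrambled, with overlapping groups (adjusted p 0.23). It was called higher without shPIWIL4 library 2 (0.21). NRF1, nuclear respiratory factor 1, had 24.3 and 24.8 CPM in shPIWIL4, against 25.9 and 25.5 CPM in Scrambled. Its log2 fold change was -0.06, with a 95% interval from -0.27 to 0.14. YY1, SP1 and CREB1 fell by 0.26, 0.31 and 0.28 (adjusted p 0.031, 0.020 and 0.017). Without Scrambled library 1 these became adjusted p 0.057, 0.16 and 0.084, so that none was called. Without Scrambled library 2, YY1 (0.38) and CREB1 (0.19) lost the call, and without shPIWIL4 library 1 so did SP1 (0.053). YY1 also lost it in DESeq2 (0.062) and without a low-count filter (0.051), and CREB1 with a length offset (0.086). GABPB1, another GABP subunit, did not pass the test (-0.18, adjusted p 0.11), though it was called lower with upper-quartile scaling (-0.31), library totals (-0.23), a stricter filter (-0.27) and without shPIWIL4 library 2 (-0.22).

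**Figure D5:**
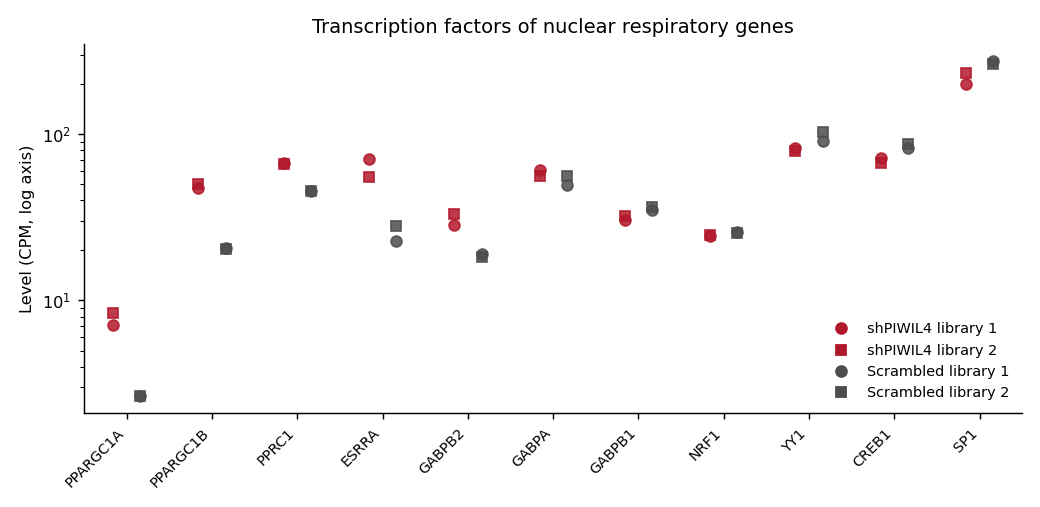
TMM-scaled CPM per library (vertical axis, log scale) of the 11 transcription factors and coactivators of nuclear respiratory genes. PPARGC1A, PPARGC1B and ESRRA lie higher in both shPIWIL4 libraries, while NRF1 lies between 24.3 and 25.9 CPM in all 4 libraries.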

How the data were processed

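Per the submitters' processing notes, reads were handled with STAR, featureCounts and DESeq2 on hg19. The sources used here give no version, gene annotation or strand setting. Per the labels, libraries came from total RNA with an Illumina TruSeq kit. For each library the authors deposited raw gene counts beside FPKM and TPM values. The deposited FPKM values served only to recover gene lengths, whole within 0.01 for 20733 of 20742 genes, and the deposited TPM values only for levels per length. Genes were kept by filterByExpr (minimum count 10, minimum total 15) and tested with edgeR 4.0.16 in R 4.3.3 (TMM, robust quasi-likelihood, group as the only term). Each SE was taken from the log2 fold change and its F statistic. DESeq2 1.42.0 served as an alternative, and the stricter filter asked for 10 CPM in the higher group. Replicates differed by more than sampling noise, with a chi-square per gene of 27.9 in shPIWIL4 and 7.89 in Scrambled. A deposited matrix of size-factor normalized values was not used. The method was tested on simulated counts. The members, lists and the rule for naming genes were chosen with earlier results of these data known. Values in every library are given for the 3 largest and 3 smallest changes in each complex, for members called lower, for isoform pairs, the subunit c genes and SDHA to SDHD. Of the pathway list, up to 4 called genes with the smallest p in each class are named, and every called transcription factor. Further genes were named after their values were seen. Some markers of other cell types are not reported here.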

Additional observations from a re-analysis of the deposited data

How the results depend on the processing

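Of the 40 members called higher, 33 were called under each of 12 other settings, and of the 6 called lower, 2 (COX7A2L and COX6B2) were called wherever they were tested. No member reversed direction past the threshold. Members called higher ranged from 33 to 43 and members called lower from 3 to 7 when 1 library was left out, where a lone library is assumed to vary like the other group. The median log2 fold change of members ranged from 0.39 to 0.57 in those fits. Upper-quartile scaling moved the median of all genes to -0.12 and the share of calls that were higher to 37.6%, against 49.7% with TMM, and gave 35 members higher and 8 lower. It left 31 subunits higher and 1 lower, and 2 assembly factors higher and 4 lower. Pathway list genes called lower numbered 4 in the reported fit, 7 with upper-quartile scaling and 1 with the replicate block. With upper-quartile scaling the COX19 value was -0.38. The cause was not tested. The replicate numbers shared by the groups were not taken as pairs, as same-numbered libraries tended to deviate in opposite directions from their group means (r = -0.31 across genes). With 2 libraries per group both numbers give the same r, so it cannot decide whether libraries were handled in pairs. With the replicate block, 38 members were higher and 5 lower, and ATP5L, COX14, COX19, YY1, SP1 and CREB1 were no longer called (adjusted p 0.11, 0.054, 0.12, 0.11, 0.062 and 0.078). A crossed pairing, added after the data were seen, gave 42 and 8, and 7 lower genes in the pathway list. Over all genes tested, 24.3% were higher and 26.1% lower with the replicate block. With the crossed pairing these shares were 35.6% and 35%, against 28.7% and 29.1% in the reported fit. Without a filter on low counts or with DESeq2, 40 members were higher, and 6 and 4 were lower. Over all genes tested, 24% and 24.3% were higher in these 2 settings, and 21.4% and 21.1% lower. Depth limits the tissue isoforms, of which all but COX6B2 had at most 16 counts per library.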
